A study of Mus musculus with 6 samples.

Results

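The genes that drive a cell through DNA replication and mitosis were examined in mouse bone marrow-derived macrophages. The set holds 57 genes, found by symbol among the 55401 genes of the deposited expression table, and every one of them was present. They were divided by role into 27 genes of the G1/S switch and DNA replication and 30 genes of G2 and mitosis (G2/M). Bone marrow-derived macrophages are grown from the marrow of the femur and tibia, here of C57BL/6 mice, in medium with serum and the growth factor M-CSF at 40 ng/mL for 7 days. The growth conditions are said to come before a treatment, which the labels do not name. RNA-seq of poly(A) RNA gave 6 libraries, 3 with the genotype label Mettl3-/- (labelled KO below) and 3 with the label wild type (WT). METTL3 is the catalytic subunit of the complex that places N6-methyladenosine on messenger RNA. The labels do not say how Mettl3 was deleted, in which cells, or whether the 3 libraries of a group came from separate mice or cultures. The p-values therefore measure only the spread between these libraries, which may be technical.

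A cell commits to division when D-type cyclins with CDK4 or CDK6, and then cyclin E with CDK2, release E2F transcription factors from the retinoblastoma protein, and E2F then drives the genes of DNA replication. Genes of G2 and mitosis are switched on later through the MuvB complex with B-MYB and FOXM1, which binds the cell cycle genes homology region (CHR) of their promoters, often beside CCAAT boxes bound by NF-Y. Macrophage precursors divide in response to M-CSF, and leave the cycle as they mature, so the level of these transcripts in a whole culture depends on how many cells are in the cycle as well as on the level in each cell.

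The promoters of the 2 groups hold different motifs of those these factors are known to read, and 8 of them are shown so that the motifs can be seen in their context. Promoter sequences were taken from RefSeq (build GRCm38.p6) in windows of 300 bases, 250 of them before the start. An entry was present for 46 of the 57 genes, giving 25 promoters of 22 G1/S genes and 25 promoters of 24 G2/M genes. Exact matches were searched on both strands for the E2F sites TTTCCCGC, TTTGGCGC, TTTCGCGC and TTTGCCGC, for the CHR letters TTTGAA and TTCGAA, and for CCAAT. The E2F letters on opposite strands can overlap each other, as in Mcm5 and Mcm6, and each overlapping match was kept. At least 1 E2F site was found in 36.0% of the G1/S promoters and 4.0% of the G2/M promoters, against 2.26% of all 32851 promoters in the table. The CHR letters were found in 5 of 25 G1/S promoters (20.0%) and 21 of 25 G2/M promoters (84.0%), against 19.2% of all promoters. With only the bases before the start searched, the CHR share of the G2/M promoters was 44.0%, against 17.1% of all promoters. CCAAT stood in 68.0% of the G1/S promoters and 84.0% of the G2/M promoters, against 37.4% of all promoters. CHR letters and CCAAT stood together in 76.0% of the G2/M promoters, 20.0% of the G1/S promoters and 7.52% of all promoters. With only the bases before the start searched, these shares were 36.0%, 20.0% and 6.02%, and the E2F share was 24.0% in the G1/S promoters, 4.0% in the G2/M promoters and 1.86% in all promoters. A match is a description of the letters and does not show that a factor binds there.

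The first 5 sequences are from G2/M genes. Ube2c (chr2:164769679-164769897, plus strand) was 1 of the 2 members that passed the test below, and Cdc20 (chr4:118437353-118437593, minus strand) encodes its partner in the degradation of mitotic proteins. Cdk1 (chr10:69352939-69353162, minus strand), Top2a (chr11:99024190-99024439, minus strand) and Mki67 (chr7:135716380-135716629, minus strand) are general marks of dividing cells. The other 3 sequences are from G1/S genes: Mcm5 (chr8:75109259-75109508, plus strand) and Mcm6 (chr1:128359706-128359955, minus strand), which encode subunits of the replicative helicase, and Cdk2 (chr10:128705052-128705301, minus strand). Each runs 5′ to 3′ on the strand of its gene and ends where the first known transcript begins, so that bases after the start are not shown. Capitals mark E2F, CHR and CCAAT letters on either strand.
Ube2c: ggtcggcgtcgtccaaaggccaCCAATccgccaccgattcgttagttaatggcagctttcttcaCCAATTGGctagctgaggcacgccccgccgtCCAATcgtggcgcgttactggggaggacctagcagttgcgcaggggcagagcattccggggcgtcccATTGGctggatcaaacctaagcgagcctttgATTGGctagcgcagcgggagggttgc
Cdc20: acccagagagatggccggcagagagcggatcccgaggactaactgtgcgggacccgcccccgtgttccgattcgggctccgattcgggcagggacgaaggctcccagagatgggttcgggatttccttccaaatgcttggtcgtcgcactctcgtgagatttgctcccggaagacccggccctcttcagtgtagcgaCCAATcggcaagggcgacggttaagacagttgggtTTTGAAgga
Cdk1: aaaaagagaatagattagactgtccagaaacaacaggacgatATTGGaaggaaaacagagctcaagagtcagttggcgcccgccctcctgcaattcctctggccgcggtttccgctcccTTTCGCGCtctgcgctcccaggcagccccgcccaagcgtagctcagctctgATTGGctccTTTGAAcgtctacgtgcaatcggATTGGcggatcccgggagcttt
Top2a: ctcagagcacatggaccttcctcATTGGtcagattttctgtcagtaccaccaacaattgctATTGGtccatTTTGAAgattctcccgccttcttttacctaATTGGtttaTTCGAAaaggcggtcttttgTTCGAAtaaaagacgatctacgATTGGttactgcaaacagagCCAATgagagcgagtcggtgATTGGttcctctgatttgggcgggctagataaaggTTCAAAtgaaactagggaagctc
Mki67: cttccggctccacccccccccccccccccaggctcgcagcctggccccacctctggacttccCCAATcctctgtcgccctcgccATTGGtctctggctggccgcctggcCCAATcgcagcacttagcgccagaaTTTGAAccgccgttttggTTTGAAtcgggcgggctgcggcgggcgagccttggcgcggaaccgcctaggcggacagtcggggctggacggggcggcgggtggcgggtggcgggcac
Mcm5: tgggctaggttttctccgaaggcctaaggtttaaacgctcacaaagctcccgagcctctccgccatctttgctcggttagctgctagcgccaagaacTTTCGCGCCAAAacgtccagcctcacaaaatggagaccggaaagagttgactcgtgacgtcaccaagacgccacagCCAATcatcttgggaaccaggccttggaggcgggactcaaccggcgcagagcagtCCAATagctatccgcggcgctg
Mcm6: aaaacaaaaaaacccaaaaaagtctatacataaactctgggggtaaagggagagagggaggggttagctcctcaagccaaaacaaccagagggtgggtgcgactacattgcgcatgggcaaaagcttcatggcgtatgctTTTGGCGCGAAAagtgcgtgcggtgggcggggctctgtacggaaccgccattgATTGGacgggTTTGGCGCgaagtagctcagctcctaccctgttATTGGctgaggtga
Cdk2: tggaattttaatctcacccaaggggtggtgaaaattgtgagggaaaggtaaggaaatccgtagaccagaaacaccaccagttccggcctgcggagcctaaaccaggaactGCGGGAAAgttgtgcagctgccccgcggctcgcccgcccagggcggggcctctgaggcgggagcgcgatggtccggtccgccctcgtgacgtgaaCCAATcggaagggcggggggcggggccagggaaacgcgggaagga
In the Ube2c stretch the capitals are CCAAT letters on both strands, and its CHR letters (TTCAAA) lie at position -29 from the RefSeq start, past the end of the stretch. Cdc20 has TTTGAA at position -18, close behind a CCAAT box at position -53. Cdk1 was the G2/M promoter with an E2F match. The Mcm5 and Mcm6 promoters hold E2F letters and CCAAT but no CHR letters.

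The libraries held 67280390 to 77997742 estimated counts. The table also gives FPKM, in which fragments are set per length of the transcript and per depth of the library, so that levels of different genes can be compared. Fold changes and p-values below come from edgeR's quasi-likelihood test on the counts, with Benjamini-Hochberg adjustment over the 16256 genes tested. Called genes are those with an adjusted p under 0.05. Of these 16256 genes, 12.7% were called, 7.01% as higher in labelled KO and 5.67% as lower. The macrophage marker Csf1r, the receptor for M-CSF, averaged 687 FPKM in the libraries labelled KO and 569 FPKM in WT libraries. The transcript level of the targeted gene did not follow the labels. Mettl3 was at 2.50, 2.56 and 2.93 FPKM in the libraries labelled KO and at 2.62, 2.91 and 2.26 FPKM in WT libraries, and its log2 fold change was 0.02 ± 0.11 (SE, adjusted p = 0.93). Mettl3 shares 18.4% of its exonic bases with Tox4 on the other strand. Tox4 had a mean FPKM of 18.8 in the libraries labelled KO and 17.7 in WT libraries. Levels were read over whole genes and not over single exons, so the deletion itself was not tested. Every direction below is that of the libraries labelled KO against those labelled WT.

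The median of the mean FPKM was 2.75 over the G1/S genes, 1.72 over the G2/M genes and 2.84 over all tested genes. Of the 57 genes, 11 had a mean under 1 FPKM over the 6 libraries, 37 lay between 1 and 5 FPKM and 9 lay above 5 FPKM. The 2 highest, Pcna and Cdk4, are both G1/S genes, and the means of the 30 G2/M genes lay between 0.151 FPKM (Cdc25c) and 7.99 FPKM (Mki67). All 57 passed the filter on low counts. The lowest count in any library was 27, in Cdc25c, and the highest was 10512, in Pcna.

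In the G1/S and replication group, the median difference was small and edgeR called no member. The 27 genes had a median log2 fold change of -0.07, against -0.0049 over all tested genes, and 17 of them (63.0%) lay below 0, against 50.7% of all tested genes. By edgeR, 0 of 27 were called in either direction, where 12.7% of all tested genes were called. At an unadjusted p under 0.05 edgeR gave 8 genes (29.6%), 3 higher and 5 lower, against 26.5% of all tested genes, 13.9% higher and 12.5% lower. DESeq2 called 4 of 27, which were E2f8 (higher) and Ccnd1, Mcm7 and Cdk4 (lower), where it called 20.0% of the genes it tested. Summed over the 27 genes, FPKM was 152.9, 147.5 and 156.1 in the libraries labelled KO and 166.6, 153.5 and 155.8 in WT libraries, so the groups overlapped. All 3 libraries labelled KO were below all 3 WT libraries for 6 of the 27 genes (22.2%), against 14.6% of all tested genes. They were above them for 5 genes (18.5%), against 19.1%. The lowest of the 6 libraries was a labelled KO library for 17 genes (63.0%), against 47.3% of all tested genes. In a bulk sample, fewer cycling cells and less of each transcript per cell cannot be told apart.

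**Figure D1:**
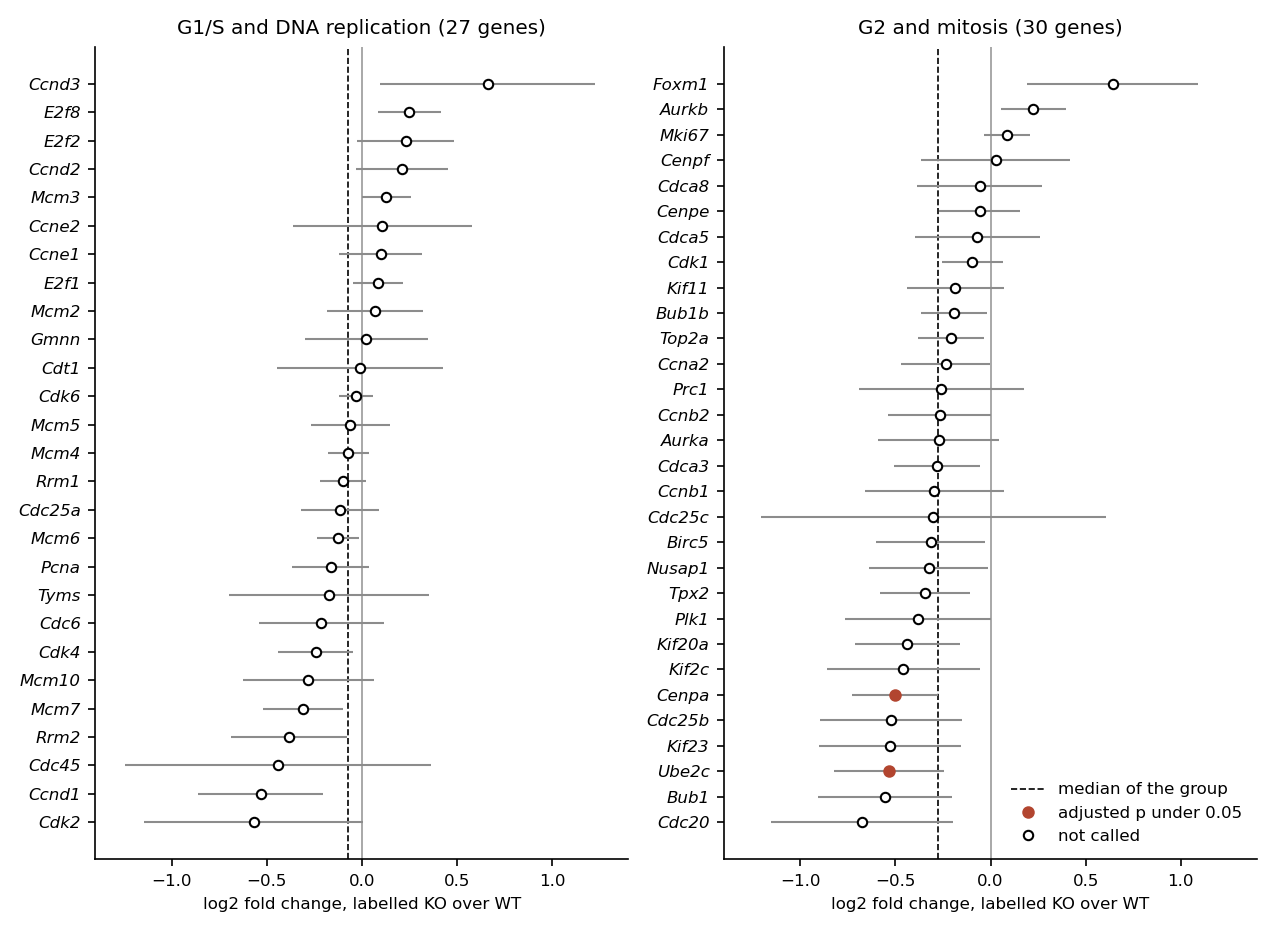
Log2 fold change (x axis, labelled KO over WT) of each member (rows), G1/S and replication genes on the left and G2/M genes on the right, with 95% limits from edgeR's quasi-likelihood fit as grey lines. The dashed line marks the group's median, -0.07 on the left and -0.28 on the right, and the filled points are Cenpa and Ube2c, the members with an adjusted p under 0.05.

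The D-type cyclins, which pair with CDK4 and CDK6 in early G1, did not move together. Ccnd1 was at 0.796, 0.895 and 0.936 FPKM in the libraries labelled KO and at 1.29, 1.06 and 1.41 FPKM in WT libraries. All 3 libraries labelled KO were below all 3 WT libraries, and the log2 fold change of -0.53 ± 0.14 (SE) had an edgeR adjusted p of 0.0532. Without WT replicate 2, whose value was the lowest of the WT group, Ccnd1 was called (log2 fold change -0.64, edgeR adjusted p = 0.0377). It was called in no other fit that left out 1 library (edgeR adjusted p from 0.101 to 0.148). Ccnd1 shares 23.4% of its exonic bases with LTO1 on the other strand, whose mean FPKM was 1.25 in the libraries labelled KO and 1.32 in WT libraries. Ccnd3 was at 7.82, 10.2 and 10.3 FPKM in the libraries labelled KO and at 3.89, 6.55 and 7.22 FPKM in WT libraries. The groups did not overlap, but WT replicate 1 lay far below the other WT libraries, and the log2 fold change of 0.66 ± 0.24 (SE) was not called (edgeR adjusted p = 0.13). Ccnd2 averaged 1.43 ± 0.0400 FPKM in the libraries labelled KO and 1.22 ± 0.148 FPKM in WT libraries (SD, n = 3 each), with a log2 fold change of 0.21 (adjusted p = 0.25 by edgeR). Ccnd3 was the main D-type cyclin in every library: it made up 80.2 ± 2.17% of their summed FPKM in the libraries labelled KO and 69.3 ± 8.28% in WT libraries (SD, n = 3 each). The share of Ccnd1 was 7.50 ± 0.368% in the libraries labelled KO and 15.4 ± 4.03% in WT libraries.

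Of the kinases that these cyclins activate, Cdk4 was the more abundant and Cdk6 the steadier. Cdk4 was at 18.3, 18.5 and 19.2 FPKM in the libraries labelled KO and at 24.6, 19.7 and 21.2 FPKM in WT libraries. The groups did not overlap, and the log2 fold change of -0.24 ± 0.08 (SE) was not called by edgeR (adjusted p = 0.12). Cdk4 shares 19.7% of its exonic bases with Tspan31 on the other strand, which had a higher FPKM than Cdk4 itself (41.8 in the libraries labelled KO and 40.3 in WT libraries). Cdk6 averaged 3.22 ± 0.0831 FPKM in the libraries labelled KO and 3.25 ± 0.0161 FPKM in WT libraries (SD, n = 3 each), and its 95% limits allowed a ratio between 0.920 and 1.04. This was the narrowest interval of the 27 genes. The E-type cyclins Ccne1 and Ccne2, which activate CDK2 late in G1, had log2 fold changes of 0.10 and 0.11. Ccne1 made up 81.0 ± 2.88% of their summed FPKM in the libraries labelled KO and 81.2 ± 2.89% in WT libraries. Cdk2 itself was at 2.0, 2.51 and 2.18 FPKM in the libraries labelled KO and at 3.97, 3.73 and 2.10 FPKM in WT libraries. WT replicate 3 stood among the libraries labelled KO, so the groups overlapped (log2 fold change -0.57 ± 0.24, SE, edgeR adjusted p = 0.19). Without WT replicate 3 the log2 fold change of Cdk2 was -0.80 and it was called (edgeR adjusted p = 0.0153). It was called in no other fit that left out 1 library (edgeR adjusted p from 0.252 to 0.412). Cdc25a, the phosphatase that activates CDK2, had a log2 fold change of -0.11.

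The 3 E2F factors of the set, E2f1, E2f2 and E2f8, had higher means in the libraries labelled KO, but edgeR called none of them. E2f8, an atypical E2F that represses E2F targets, was at 1.96, 2.07 and 2.11 FPKM in the libraries labelled KO and at 1.66, 1.69 and 1.76 FPKM in WT libraries. The groups did not overlap, and the log2 fold change of 0.25 ± 0.07 (SE) had an edgeR adjusted p of 0.0638. The activators E2f1 and E2f2 had log2 fold changes of 0.08 and 0.23, neither called by edgeR (adjusted p = 0.40 and 0.23). E2f1 was the most abundant of the 3 in FPKM, at 8.05 ± 0.389 in the libraries labelled KO and 7.51 ± 0.145 in WT libraries (SD, n = 3 each).

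The licensing factors and the MCM helicase, which are loaded on origins before S phase, showed small differences in both directions. Mcm2 was at 2.41, 1.9 and 2.38 FPKM in the libraries labelled KO and at 2.01, 2.20 and 2.09 FPKM in WT libraries, with a log2 fold change of 0.07 ± 0.11 (SE, adjusted p = 0.75 by edgeR). The KO-labelled values lay on both sides of the WT values. Mcm7 was at 2.75, 2.49 and 2.33 FPKM in the libraries labelled KO and at 2.90, 3.13 and 3.25 FPKM in WT libraries, a log2 fold change of -0.31 ± 0.09 (SE, adjusted p = 0.0698 by edgeR). Its groups did not overlap. Mcm7 shares exonic bases with the microRNA genes Mir25 and Mir93, and 7.25% of them with Ap4m1 on the other strand. Mcm4 and Mcm6 were below WT in every library and Mcm3 was above it, with log2 fold changes of -0.07, -0.12 and 0.13, and Mcm5 overlapped at -0.06. These subunits form a hexamer with 1 copy of each, but their transcripts differed in level. Mcm3 made up 28.0 ± 0.650% of the summed FPKM of Mcm2 to Mcm7 in the libraries labelled KO and 24.9 ± 0.970% in WT libraries, and Mcm7 7.73 ± 0.588% in the libraries labelled KO and 9.31 ± 0.50% in WT libraries (SD, n = 3 each). Cdt1 and Cdc6, which load the helicase, had log2 fold changes of -0.01 and -0.21, and Gmnn, the inhibitor of Cdt1, 0.02. Mcm10, which helps to activate the loaded helicase, had -0.28. Cdc45, a subunit of the active helicase, was at 1.25, 0.505 and 1.24 FPKM in the libraries labelled KO and at 1.51, 1.18 and 1.34 FPKM in WT libraries, so that the low mean of the labelled KO group rested on replicate 2. Its log2 fold change was -0.44 with all libraries and -0.13 without KO replicate 2, and neither was called.

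At the replication fork, Pcna encodes the sliding clamp that holds DNA polymerase on the template. Pcna was the most abundant of the 57 genes, at 49.1, 42.8 and 49.2 FPKM in the libraries labelled KO and 57.8, 49.4 and 49.1 FPKM in WT libraries. The groups overlapped, and the log2 fold change of -0.16 ± 0.08 (SE) was not called (edgeR adjusted p = 0.28). Its 95% limits ran from -0.37 to 0.04. Rrm1 and Rrm2, the subunits of ribonucleotide reductase, had log2 fold changes of -0.10 and -0.38. Rrm2, whose level in many cells follows S phase, averaged 3.0 ± 0.226 FPKM in the libraries labelled KO and 3.88 ± 0.588 FPKM in WT libraries (SD, n = 3 each, edgeR adjusted p = 0.11), with no overlap. Tyms, which makes thymidylate, was under 1 FPKM in every library and had a log2 fold change of -0.17.

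**Figure D2:**
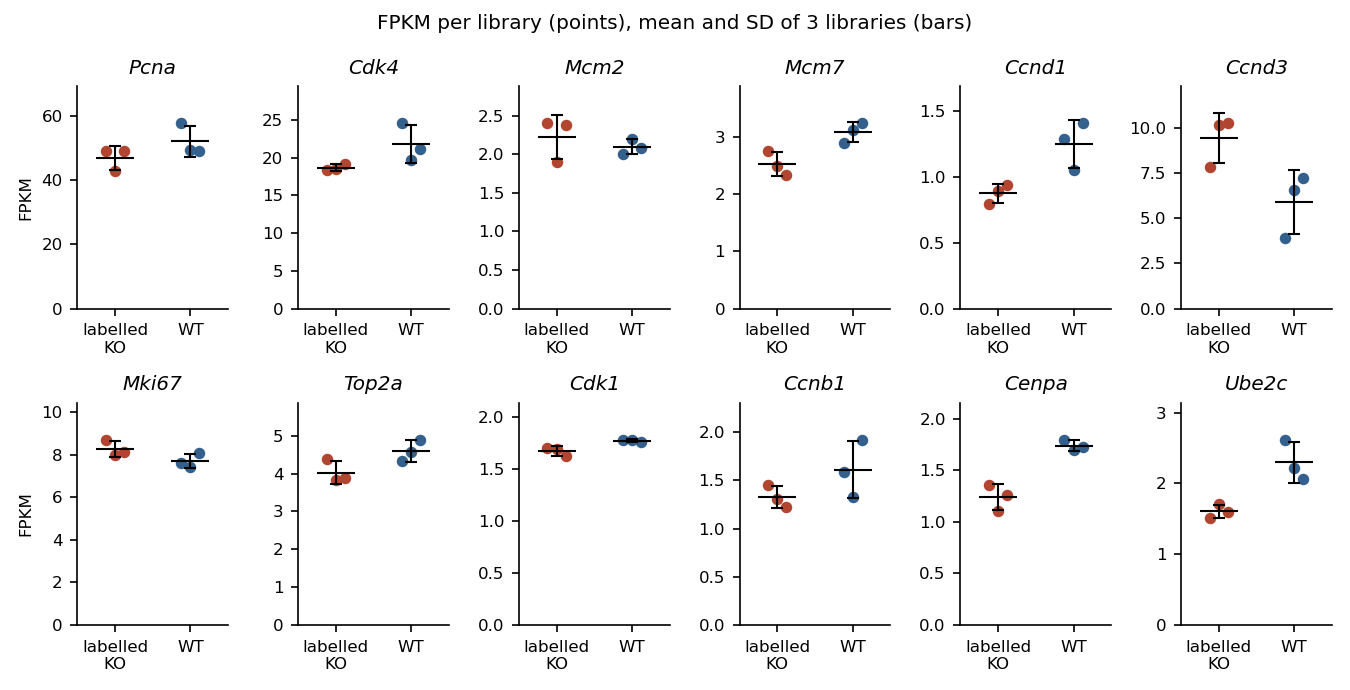
FPKM (y axis, linear, from 0) of 12 members in each library (points), labelled KO left of WT, with the mean and SD of 3 libraries as bars. The upper row holds G1/S and replication genes and the lower row G2/M genes; Cenpa and Ube2c, at the lower right, show the 3 KO-labelled points below the 3 WT points, and Ccnd3 shows the opposite order with a wide WT spread.

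In the G2/M group, most members had lower levels in labelled KO libraries than in WT libraries, by small amounts. The 30 genes had a median log2 fold change of -0.28, against -0.0049 over all tested genes, and 26 of them (86.7%) lay below 0, against 50.7% of all tested genes. Single genes rarely passed the test. By edgeR, 0 of 30 were called higher and 2 lower (6.67%), which is near the 5.67% called lower among all tested genes. The 2 that fell were Cenpa and Ube2c. DESeq2 called 8 lower (Cenpa, Ube2c, Kif20a, Bub1, Tpx2, Cdc20, Kif23 and Cdc25b) and 1 higher (Foxm1), where it called 8.87% of its tested genes lower and 11.1% higher. At an unadjusted p under 0.05 edgeR gave 15 lower and 2 higher, of 30, against 12.5% lower and 13.9% higher of all tested genes.

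The shift was seen in each library. All 3 libraries labelled KO were below all 3 WT libraries in FPKM for 16 of the 30 genes, against 14.6% of all tested genes, and above them for 2 genes (Aurkb and Foxm1), against 19.1%. The lowest of the 6 libraries was a labelled KO library for 25 of the 30 genes, against 47.3% of all tested genes. Summed FPKM over the 30 genes was 55.8, 52.6 and 54.1 in the libraries labelled KO and 63.3, 60.6 and 63.3 in WT libraries, or 54.2 ± 1.58 and 62.4 ± 1.56 (SD, n = 3 each). These sums did not overlap, and an exact permutation test of 3 libraries against 3 cannot give a two-sided p under 0.1. Summed FPKM over all tested genes did not overlap either: 317110 to 318080 in the libraries labelled KO and 327980 to 330280 in WT libraries. The median deviation of the 30 genes from their own mean over the 6 libraries, on the log2(FPKM + 0.1) scale, was -0.10, -0.15 and -0.12 in the libraries labelled KO and 0.14, 0.08 and 0.12 in WT libraries. For the 27 G1/S genes the same medians ran from -0.0478 to 0.0253 in the libraries labelled KO and from -0.0026 to 0.0528 in WT libraries. The genes of a group are not independent replicates, and the difference between the 2 groups of genes was not tested. Over the 7027 tested genes with a mean FPKM inside the middle 80% of the members (0.639 to 7.85), which are genes of like level, the median log2 fold change was 0.0092, and 9.89% were called, 4.01% as lower.

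**Figure D3:**
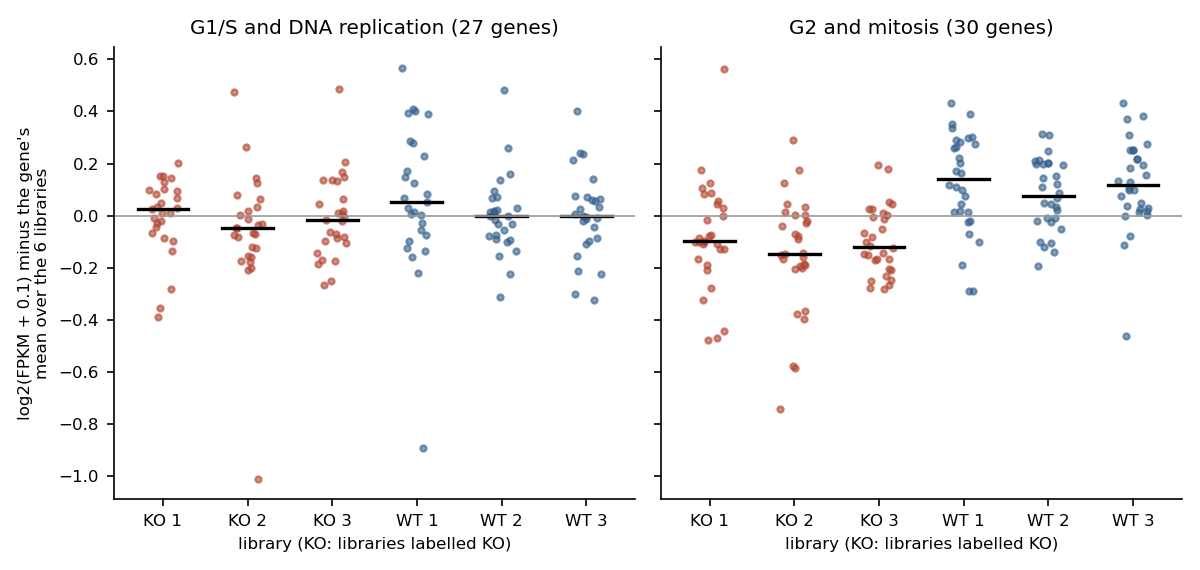
Deviation of each gene from its own mean over the 6 libraries (y axis, log2(FPKM + 0.1)) in each library (x axis, labelled KO left of WT), with 1 point a gene and the median as a bar. G2/M medians run from -0.15 to -0.10 in the libraries labelled KO and from 0.08 to 0.14 in WT libraries, while the G1/S medians of the groups overlap.

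Markers of cell types were read in the same libraries, where 12.7% of all tested genes were called. Of 7 monocyte markers, 6 were called higher in the libraries labelled KO, and their summed FPKM was 555.1 to 567.6 in the libraries labelled KO and 349.4 to 356.5 in WT libraries. Of 7 tested markers of marrow progenitors, 1 was called higher (Mpo, log2 fold change 1.46), and the summed FPKM of all 8 was 5.47 to 6.31 in the libraries labelled KO and 3.30 to 4.18 in WT libraries. Of 8 macrophage markers, 3 were called higher (Csf1r, Mertk and Fcgr1) and 2 lower (Lyz2 and Adgre1). Their sum was 8523 to 8616 in the libraries labelled KO and 16500 to 16840 in WT libraries. Most of it was Lyz2, which averaged 6012 FPKM in the libraries labelled KO and 14189 FPKM in WT libraries (log2 fold change -1.26). Of 8 T and NK cell markers 0 were called (sums of 15.0 to 15.6 in the libraries labelled KO and 12.1 to 14.3 in WT libraries), and of 5 tested B cell markers also 0. Of 5 tested neutrophil markers, 1 was called lower (Ltf, log2 fold change -0.38), and the summed FPKM of all 7 was 50.3 to 60.8 in the libraries labelled KO and 60.1 to 65.8 in WT libraries. Of 8 erythroid and megakaryocyte markers, the globin genes Hba-a1, Hba-a2, Hbb-bs and Hbb-bt were listed at 0 in all 6 libraries, and the 1 tested, Pf4, was called lower (log2 fold change -0.37, edgeR adjusted p = 0.00243) at 133.9 to 145.2 FPKM in the libraries labelled KO and 176.8 to 182.6 FPKM in WT libraries. Of 7 stromal and endothelial markers, 1 was called higher and 1 lower. The part of these cells in the cell cycle values was not tested.

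Cenpa encodes the histone H3 variant that marks the centromere (ENSMUSG00000029177, chr5:30666777-30674830 of mm10, plus strand). It was at 1.36, 1.11 and 1.25 FPKM in the libraries labelled KO and at 1.8, 1.69 and 1.72 FPKM in WT libraries. All KO-labelled values lay below all WT values. It fell by 0.50 ± 0.09 on the log2 scale (SE, edgeR adjusted p = 0.0183). Ube2c encodes the ubiquitin-conjugating enzyme of the anaphase-promoting complex (ENSMUSG00000001403, chr2:164769898-164778822 of mm10, plus strand). It was at 1.51, 1.71 and 1.6 FPKM in the libraries labelled KO and at 2.62, 2.22 and 2.06 FPKM in WT libraries, with no overlap. It fell by 0.53 ± 0.12 on the log2 scale (SE, edgeR adjusted p = 0.0345). Ube2c shares 22.8% of its exonic bases with Tnnc2 on the other strand, which was listed at 0 in every library. Neither call was kept in every alternative fit, though the direction was. Without a filter on low counts, edgeR still called Cenpa (adjusted p = 0.0300) but not Ube2c (adjusted p = 0.0533). Limma on log2(FPKM + 0.1) without that filter gave adjusted p of 0.0677 and 0.0690. Each fit that left out 1 library had fewer samples and called 1244 to 1339 genes over the whole table, against 2060 with all libraries. The edgeR adjusted p of Cenpa was 0.0285 and 0.0426 without KO replicates 1 and 2, and 0.0617 without KO replicate 3. It was 0.0624, 0.0520 and 0.0577 without WT replicates 1, 2 and 3. For Ube2c it was 0.109, 0.0747 and 0.102 without KO replicates 1, 2 and 3, 0.0867 and 0.0830 without WT replicates 1 and 2, and 0.0473 without WT replicate 3. Over these fits the log2 fold change ran from -0.57 to -0.43 for Cenpa and from -0.61 to -0.43 for Ube2c.

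The mitotic kinase Cdk1 and its cyclins lay slightly below WT. Cdk1 was at 1.70, 1.70 and 1.62 FPKM in the libraries labelled KO and at 1.78, 1.78 and 1.76 FPKM in WT libraries, a log2 fold change of -0.10 ± 0.07 (SE, adjusted p = 0.43 by edgeR). The groups did not overlap, but the gap was small. Ccnb1, the B-type cyclin that brings cells into mitosis, was at 1.45, 1.31 and 1.22 FPKM in the libraries labelled KO and at 1.59, 1.33 and 1.92 FPKM in WT libraries, with overlap and a log2 fold change of -0.30 ± 0.15 (SE, adjusted p = 0.28 by edgeR). Ccnb2 and Ccna2, the cyclins of mitosis and of S phase and G2, had log2 fold changes of -0.27 and -0.24, both without overlap and not called. Ccnb2 made up 66.8 ± 1.5% of the summed FPKM of the B-type cyclins in the libraries labelled KO and 66.3 ± 4.32% in WT libraries. Of the CDC25 phosphatases that activate CDK1, Cdc25b had a log2 fold change of -0.52 (adjusted p = 0.0815 by edgeR, and 0.0497 without KO replicate 3). In the other fits that left out 1 library, the edgeR adjusted p of Cdc25b was 0.0878 to 0.186. Cdc25c was the scarcest member, at 0.136 ± 0.0614 FPKM in the libraries labelled KO and 0.166 ± 0.0185 FPKM in WT libraries, and its 95% limits from -1.21 to 0.61 were the widest of the 57. The kinases Plk1 and Aurka, which act on spindle poles and mitotic entry, had -0.38 and -0.27, with overlap.

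FOXM1 is the factor that drives the transcription of this group late in the cycle, and its own transcript differed the other way. Foxm1 was at 1.01, 0.820 and 0.651 FPKM in the libraries labelled KO and at 0.560, 0.558 and 0.448 FPKM in WT libraries. The groups did not overlap, and the log2 fold change of 0.64 ± 0.19 (SE) was not called by edgeR (adjusted p = 0.0782) but was by DESeq2 (adjusted p = 0.0239). It was the highest fold change of the 30. Aurkb, the kinase of the chromosomal passenger complex, was at 3.22, 3.11 and 2.96 FPKM in the libraries labelled KO and at 2.64, 2.57 and 2.63 FPKM in WT libraries, a log2 fold change of 0.22 ± 0.07 (SE, adjusted p = 0.0984 by edgeR). The other 2 members of that complex in the set had values below 0: Birc5 (survivin) had a log2 fold change of -0.32 without overlap and Cdca8 (borealin) -0.06 with overlap.

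Mki67 and Top2a, used widely to count dividing cells, had fold changes of opposite sign, and neither was called. Mki67 was at 8.71, 7.99 and 8.12 FPKM in the libraries labelled KO and at 7.60, 7.41 and 8.08 FPKM in WT libraries, and it was the most abundant G2/M gene. The groups overlapped, and the log2 fold change was 0.09 ± 0.05 (SE, edgeR adjusted p = 0.33), with 95% limits that allowed a ratio between 0.977 and 1.15. Top2a, the topoisomerase that untangles sister chromosomes, was at 4.39, 3.82 and 3.88 FPKM in the libraries labelled KO and at 4.34, 4.57 and 4.90 FPKM in WT libraries. The KO-labelled replicate 1 overlapped the WT range, and the log2 fold change was -0.21 ± 0.07 (SE, edgeR adjusted p = 0.13).

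Cdc20, which activates the anaphase-promoting complex, was at 1.75, 1.11 and 1.76 FPKM in the libraries labelled KO and at 2.48, 2.22 and 2.63 FPKM in WT libraries. The groups did not overlap, and its log2 fold change of -0.68 ± 0.20 (SE) was the lowest of the 57 and not called by edgeR (adjusted p = 0.0802). KO replicate 2 was the lowest library. Cdc20 shares 2.84% of its exonic bases with Elovl1 on the other strand, whose mean FPKM was 38.3 in the libraries labelled KO and 38.4 in WT libraries. Bub1, a checkpoint kinase, had a log2 fold change of -0.55 (adjusted p = 0.0573 by edgeR) and its relative Bub1b had -0.19, both without overlap. Of the kinetochore proteins other than CENP-A, the motor Cenpe and the large coiled-coil protein Cenpf had log2 fold changes of -0.06 and 0.03, with overlap. Cdca5 (sororin), which protects sister cohesion, had -0.07, and Cdca3, a trigger of mitotic entry, had -0.28.

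The motors and bundlers of the spindle had log2 fold changes below 0 in each case. The kinesins Kif23, Kif2c, Kif20a and Kif11 had log2 fold changes of -0.53, -0.46, -0.44 and -0.18, and the groups overlapped only for Kif11. With all libraries edgeR called none of these 4, and DESeq2 called Kif20a and Kif23 (adjusted p = 0.0135 and 0.0210). With a mean FPKM of at least 1, edgeR called Kif20a (adjusted p = 0.0436). Kif20a was called without WT replicate 2 (edgeR adjusted p = 0.0221) and Kif23 without KO replicate 2 (edgeR adjusted p = 0.0458). In the other fits that left out 1 library, the edgeR adjusted p was 0.11 to 0.16 for Kif20a and 0.11 to 0.20 for Kif23. Kif20a shares 29.3% of its exonic bases with Cdc23 on the other strand, whose mean FPKM was 2.18 in the libraries labelled KO and 2.19 in WT libraries. Tpx2 and Nusap1, which nucleate and bundle spindle microtubules, had -0.34 and -0.33 without overlap. Prc1, which holds the central spindle together, was at 0.843, 0.892 and 0.798 FPKM in the libraries labelled KO and at 0.728, 1.15 and 1.12 FPKM in WT libraries. WT replicate 1 was the lowest of the 6. With it the log2 fold change was -0.26 (edgeR adjusted p = 0.43), and without it -0.44 (edgeR adjusted p = 0.0432). Prc1 was called in no other fit that left out 1 library (edgeR adjusted p from 0.487 to 0.723).

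**Figure D4:**
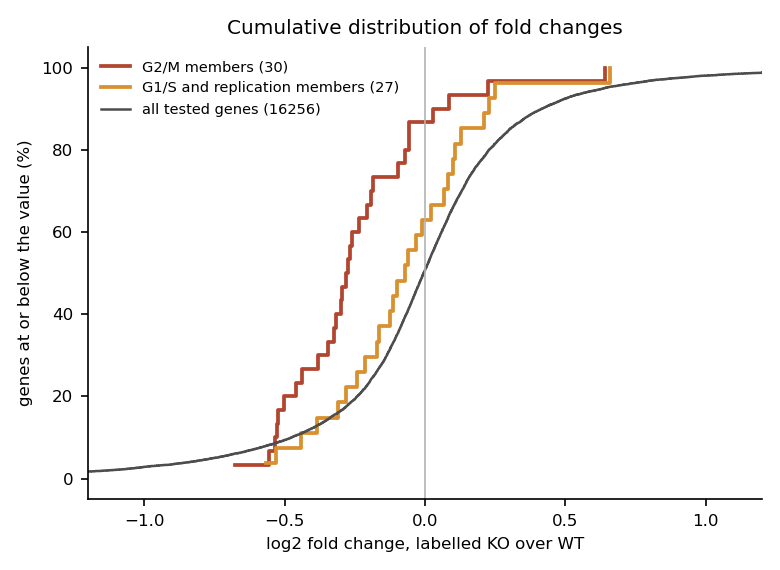
Share of genes (y axis, percent) at or below each log2 fold change (x axis, labelled KO over WT) for the G2/M genes, the G1/S and replication genes and all tested genes. At 0 the G2/M curve stands at 86.7%, the G1/S curve at 63.0% and the curve of all tested genes at 50.7%.

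Some members share exonic bases with a gene on the other strand, and the strand of the library kit is not given in the sources used here. Such sharing was found for 20 of the 57 genes and reached 10% of the exonic bases for 9 of them. Besides those given above, these were Ccna2 with Exosc9 (12.5%), Ccne2 with Ints8 (17.4%), E2f8 with Gm2788 (11.2%), Prc1 with Rccd1 (11.1%) and Cdc25c with Gm3550 (12.7%). Reads of such pairs cannot be told apart without the strand. Of the 2 called members, Cenpa had no such neighbour, and the neighbour of Ube2c was at 0.

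The wider machinery was read out through 8 further lists with 191 genes that are not among the 57, of which 189 were tested. Of these, 3 were called higher and 13 lower by edgeR (1.59% and 6.88%), against 7.01% and 5.67% of all tested genes, and the median log2 fold change was -0.08. The list nearest to the G2/M group was that of other spindle and cytokinesis genes. Like the other lists, it was chosen with earlier results of these data known, so it is not an independent test. Of its 32 genes, 29 lay below 0 (90.6%, against 50.7% of all tested genes), and the median log2 fold change was -0.37. All libraries labelled KO were below all WT libraries for 15 of them (46.9%, against 14.6% of all tested genes). Of the 32, 4 were called lower (12.5%, against 5.67% of all tested genes) and 0 higher. Troap, a spindle-associated protein, Kif4, a chromosome-bound kinesin, and Dlgap5, which stabilises kinetochore fibres, fell by 0.95, 0.72 and 0.63 on the log2 scale (edgeR adjusted p = 0.0164, 0.0203 and 0.0231). Their mean FPKM was 0.288, 0.506 and 0.596 in the libraries labelled KO and 0.554, 0.827 and 0.911 in WT libraries. These 3 calls were kept in 2, 1 and 2 of the 6 fits that left out 1 library. Kif4 shares 15.1% of its exonic bases with Pdzd11 on the other strand, whose mean FPKM was 9.85 in the libraries labelled KO and 9.44 in WT libraries.

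The lists on the start of replication had medians near 0. Among 24 genes of origin recognition and helicase activation, 2 were called lower (8.33%, against 5.67% of all tested genes) and 0 higher (median -0.02). Wdhd1, which links the helicase to DNA polymerase alpha, was at 1.11, 1.2 and 1.23 FPKM in the libraries labelled KO and at 1.81, 1.88 and 1.71 FPKM in WT libraries, fell by 0.62 ± 0.08 on the log2 scale (SE, edgeR adjusted p = 0.00378), and was called in all 6 fits that left out 1 library. Timeless, a fork protection factor, fell by 0.52 (edgeR adjusted p = 0.0290, called in 1 of the 6). Among 31 polymerase, fork and nucleotide genes, 1 was called lower (3.23%) and 0 higher (median -0.03). It was Prim1, the small subunit of primase, which fell by 0.77 (edgeR adjusted p = 0.0364) and was called in none of the 6 (adjusted p from 0.0556 to 0.112).

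Each list of regulators of the cycle held between 0 and 3 called genes. Cdkn1a encodes p21, an inhibitor of cyclin-dependent kinases. It averaged 49.0 ± 0.309 FPKM in the libraries labelled KO and 59.1 ± 0.749 FPKM in WT libraries (SD, n = 3 each), a fall of 0.29 ± 0.02 on the log2 scale (SE, edgeR adjusted p = 0.000673), and was called in all 6 fits that left out 1 library. It was the only 1 of 8 tested CDK inhibitors and pocket proteins to be called (12.5%, against 12.7% of all tested genes). The median log2 fold change of these 8 was -0.05, and the 2 untested ones were Cdkn1c and Cdkn2b. Of 14 other E2F, DREAM and MYB factors 0 were called by edgeR (1 at an unadjusted p under 0.05), and E2f4, the repressor E2F of resting cells and the most abundant of them, averaged 26.6 ± 1.49 FPKM in the libraries labelled KO and 24.7 ± 0.517 FPKM in WT libraries (SD, n = 3 each). Of 26 APC/C, SCF and mitotic checkpoint genes, 3 were called lower (11.5%, against 5.67% of all tested genes) and 0 higher (median -0.05). Skp2 and Cks1b, which together mark p27 for destruction, both fell by 0.50 (edgeR adjusted p = 0.0132 and 0.0174, called in 5 and 2 of the 6 fits), and the checkpoint kinase Ttk fell by 0.62 (edgeR adjusted p = 0.0469, called in none of them).

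The 3 genes called higher lay in the kinetochore list and the cohesin list. The shares called higher were 2.94% of the kinetochore and centromere genes and 10.0% of the cohesin and condensin genes, against 7.01% of all tested genes. Of 34 kinetochore and centromere genes, Mis12 rose by 0.35 on the log2 scale (edgeR adjusted p = 0.00415) and Ska2 fell by 0.70 (edgeR adjusted p = 0.0478), and the median was -0.15. Mis12, a scaffold of the kinetochore, averaged 17.6 ± 0.699 FPKM in the libraries labelled KO and 13.7 ± 0.243 FPKM in WT libraries (SD, n = 3 each). Of 20 cohesin and condensin genes, the cohesin loader Nipbl and the cohesin regulator Pds5b rose by 0.25 and 0.21 (edgeR adjusted p = 0.00305 and 0.0486), and the median was -0.07. Ncapg2, a condensin subunit, fell by 0.90 ± 0.20 on the log2 scale (SE, edgeR adjusted p = 0.0306). It was at 13, 12.3 and 7.48 FPKM in the libraries labelled KO and at 19.6, 19.8 and 21.1 FPKM in WT libraries, so KO replicate 3 lay below the other 2. Without KO replicate 3 it fell by 0.69 (edgeR adjusted p = 0.00191), and it was called in 2 of the 6 fits. Mis12 and Nipbl were called in all 6, and Ska2 and Pds5b in none.

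**Figure D5:**
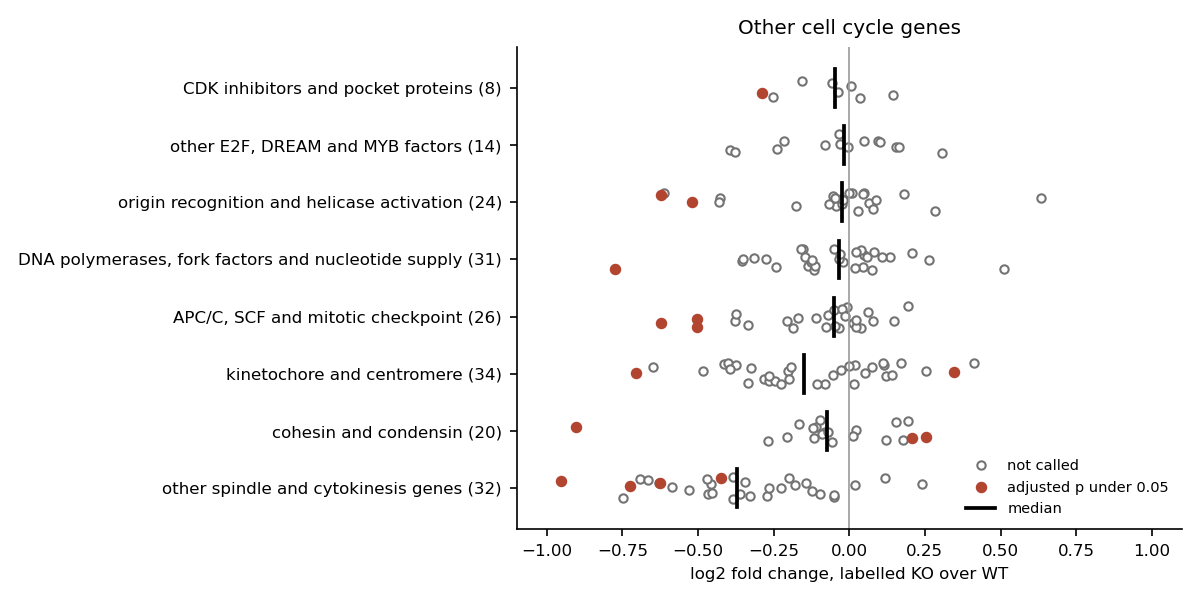
Log2 fold change (x axis, labelled KO over WT) of the tested genes of 8 further cell cycle lists (rows, with the number tested), 1 point a gene, with filled points for an edgeR adjusted p under 0.05 and a bar for the median. The median of the spindle and cytokinesis list is -0.37, and the other medians lie between -0.15 and -0.02.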

How the data were processed

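RNA-seq was compared between 3 libraries labelled KO and 3 WT libraries of bone marrow-derived macrophages, grouped by the genotype in their labels. The tools were HISAT2 2.0.4, StringTie 1.3.4d and cutadapt 1.9 on build mm10, per the submitters' processing notes. Their settings, the annotation release and the library strand are matters not given in the sources used here. Each row of the table deposited by the authors gives, per the file headers, an FPKM value and an estimated count of 1 gene in each library. The estimated counts were deposited by the authors as whole numbers, and library totals were 67280390 to 77997742. Coordinates are those of the deposited table.

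Counts were tested over the whole table with glmQLFit and glmQLFTest of edgeR 4.0.16 (R 4.3.3), scaled by TMM, with no replicate block, after filterByExpr at a minimum count of 10 and a minimum total of 15. Adjusted p-values are Benjamini-Hochberg values over the 16256 genes tested, and a gene was called under 0.05. Limits of 95% use the t distribution. FPKM is given as mean ± SD of 3 libraries. The scripts were tested on simulated data. The sharing of exonic bases was computed from GENCODE M21.

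The members, the lists and the tests were chosen with earlier results of these data known. Values in every library are given for Mki67, Top2a, Pcna, Mcm2, Ccnd1, Ccnb1, Cdk1, the called members and the member of each group with the highest FPKM. In each further list up to 3 called genes with the smallest adjusted p are named, or the most abundant gene where none was called. The library values of Ccnd3, Cdk2, Cdk4, E2f8, Mcm7, Cdc45, Foxm1, Aurkb, Cdc20 and Prc1 were added after their values were seen. Deviations within a library use log2(FPKM + 0.1). Alternatives were DESeq2 1.42.0, edgeR with median-of-ratios factors, without a filter, with a mean FPKM of at least 1 or with a replicate block, limma 3.58.1 on log2(FPKM + pseudocount), and each library left out.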

Additional observations from a re-analysis of the deposited data

How the results depend on the processing

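Of 1092 values of 74 genes, 943 kept direction and side of the threshold, 106 lost the call, 22 gained it, and 21 changed sign. The last belong to 10 genes that no fit called. With 1 library left out, the log2 fold change ran from -0.116 to 0.230 for Cdt1, -0.028 to 0.211 for Ccne2, -0.542 to 0.012 for Cdc25c, -0.185 to 0.067 for Cdca8, -0.100 to 0.014 for Cenpe, -0.128 to 0.123 for Cenpf, -0.072 to 0.168 for Gmnn, -0.109 to 0.0042 for Mcm5, -0.297 to 0.074 for Tyms and -0.066 to 0.112 for Mettl3. Cdt1 also had 0.018 with the replicate block, and by limma 0.035 with a pseudocount of 0.1 (with and without the filter), 0.036 with 0.01 and 0.025 with 1. By DESeq2, 4 of 27 G1/S genes, 9 of 30 G2/M genes and 25 other cell cycle genes were called, against 20.0% of its tested genes. With a mean FPKM of at least 1, edgeR called 3 of 23 G1/S genes, and 2247 of 10857 genes over the whole table. Without a filter, edgeR called 1 of 30 G2/M genes (Cenpa), and 1661 of 24292 genes in all. Limma on log2(FPKM + 0.1) without a filter called 0 of 30 G2/M genes, 5 of 191 other cell cycle genes and 1566 genes in all. With the filter, limma called 10 of 189 other cell cycle genes at pseudocounts of 0.1 and of 0.01, and 1916 and 1889 genes in all. The median log2 fold change of the G2/M genes was -0.24 by limma with a pseudocount of 0.1, with and without the filter, and -0.16 with a pseudocount of 1, where the G1/S median was -0.039. Leaving out each library in turn gave 1244 to 1339 called genes over the whole table, 0 to 1 G1/S genes, 1 to 2 G2/M genes and 6 to 9 other cell cycle genes, with fewer samples in each fit. The G2/M median then ran from -0.29 to -0.25 and the G1/S median from -0.09 to -0.07. With only the bases before the start searched, CHR letters were found in 44.0% of G2/M promoters. Replicate numbers are shared by the groups, but libraries with the same number did not deviate together (r = -0.021, -0.014 and 0.015). These correlations over all tested genes gave no sign of pairing, but they cannot exclude it. With the replicate block, edgeR called 1012 genes in all, 1 G1/S gene (Ccnd3, higher, adjusted p = 0.0405), 0 G2/M genes and 5 other cell cycle genes. With the block the adjusted p was 0.0504 for Cenpa and 0.103 for Ube2c. The scarcest member, Cdc25c, had counts of 27 to 79 and the widest limits.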
